A study of Oryza sativa with 4 samples.

Results

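Gibberellin-related genes were followed in polysomal RNA, the RNA found on fractions that carry several ribosomes, of 2 rice genotypes under salt. They were the annotated transcripts whose annotation text holds the word gibberellin, and 79 of the 57629 annotated transcripts met this rule, from 70 of 51250 loci. By their annotation they fell into 35 receptor transcripts, 13 GA2 oxidases, 10 GA20 or GA3 oxidases, 11 gibberellin-regulated proteins and 10 response proteins, and these groups are described apart. The genotypes were IR29, which is salt-sensitive, and Pok, which is salt-tolerant. Whole seedlings of about 24 days were either kept on Yoshida nutrient medium (control) or given 150 mM NaCl in it for 24 h (salt), and the libraries are named IR29 control, IR29 salt, Pok control and Pok salt. Each of the 4 conditions had 1 library, so effects of genotype and salt cannot be told apart from differences between libraries, and values are given without a replicate spread or a test. The methods state, for total RNA, that equal amounts from 3 biological replicates were pooled.

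Gibberellins are plant hormones of growth that are made from ent-kaurene, which cytochrome P450 enzymes oxidise further. GA20 and GA3 oxidases then form the active hormones, and GA2 oxidases inactivate active hormones or their precursors. In rice the soluble receptor GID1 binds the hormone and then the DELLA protein SLR1, a repressor of growth, which is degraded as a result. GID1 belongs to the family of plant carboxylesterase-like proteins, and the name GID1L2 in the annotation marks resemblance to GID1, so a receptor annotation does not show that the protein binds gibberellin. Gibberellin-regulated proteins of the GASA family are small, cysteine-rich secreted peptides, and the response proteins carry the GRAS-type annotations gibberellin response modulator and chitin-inducible gibberellin-responsive protein.

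Values are FPKM, a measure of fragments scaled by transcript length and by library depth, so that levels can be set beside each other between genes. Of the 79 transcripts, 39 reached 5 FPKM in at least 1 library, among them 22 receptors, 4 GA2 oxidases, 4 GA20 or GA3 oxidases, 6 gibberellin-regulated proteins and 3 response proteins. The other 40 stayed below 5 FPKM in all 4 libraries, the highest of their values being 4.88 FPKM, and 4 of them were listed at 0 in every library. The summed level of all 79 was 356 FPKM in control and 494 in salt of IR29, and 370.3 in control and 568 in salt of Pok. Receptors made up the largest share of this sum in every library, at 197, 267, 181 and 302 FPKM in the same order. Their sum was 1.36 times as high with salt in IR29 and 1.67 times as high in Pok. Sums are on the deposited scale. On it the median log2 ratio of FPKM with salt was 0.26 in IR29 and 0.06 in Pok, over 7424 annotated transcripts at 5 FPKM or more in every library. The deposited table holds no counts per transcript, so the counting error of a value cannot be given.

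**Figure D1:**
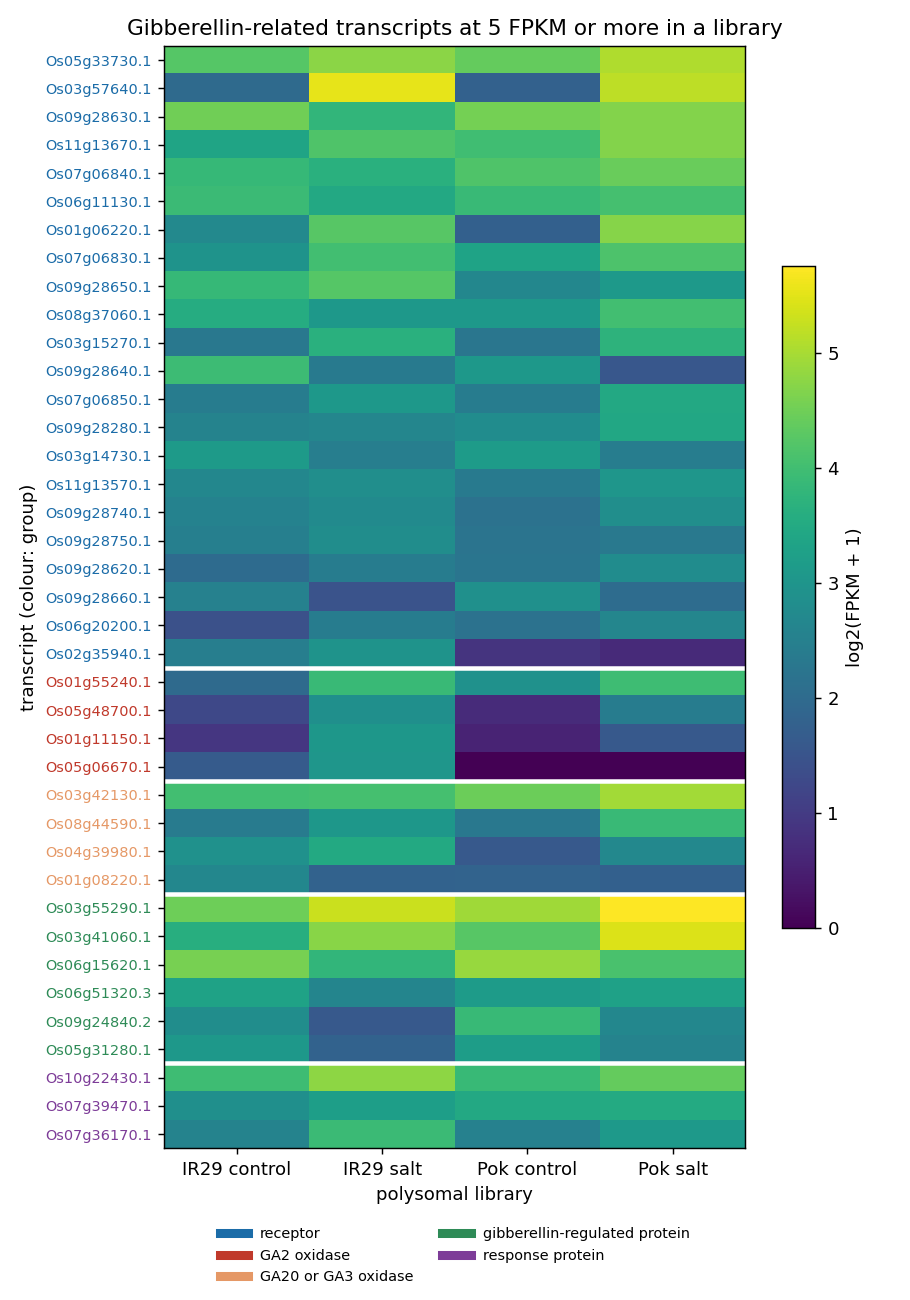
Level of the 39 gibberellin-related transcripts at 5 FPKM or more in a library (vertical axis, names coloured by group) in the 4 polysomal libraries (horizontal axis), with log2 of FPKM + 1 as the colour scale. The receptor Os03g57640.1 is dark in both controls and bright in both salt libraries, at 45.8 and 35.3 FPKM, and all 4 GA2 oxidases shown lie below 3 FPKM in IR29 control.

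A transcript was considered in a comparison with at least 5 FPKM in one of its libraries, and counted as called, higher or lower, where its FPKM differed by a factor of at least 2. A transcript under 5 FPKM in control could enter a salt comparison only through the salt library, and then could not be called lower. The reverse held for those under 5 FPKM with salt. With salt in IR29, 10 of the 36 gibberellin-related transcripts considered were called higher, against 19.1% of all annotated transcripts considered, and 4 were called lower, against 5.96%. With salt in Pok, 9 of 33 were higher, against 15.7% of all, and 3 were lower, against 5.61%. The members' shares were 27.8% higher and 11.1% lower in IR29, and 27.3% higher and 9.09% lower in Pok. All annotated transcripts together also leaned upwards with salt. The median log2 ratio of FPKM + 1 over 18012 annotated transcripts with a mean of at least 1 FPKM was 0.22 in IR29 and 0.08 in Pok. The same median over the 52 gibberellin-related transcripts under this limit was 0.27 in IR29 and 0.48 in Pok.

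The division into higher and lower calls depended on the scaling. In IR29, 71.4% of the called members were higher on the deposited scale. This became 50.0%, with 8 higher and 8 lower, after centring on the median ratio of 7424 well measured transcripts, and 47.1%, with 8 higher and 9 lower, after upper-quartile scaling. In Pok the 9 higher and 3 lower as deposited became 8 higher and 3 lower after centring (72.7% higher) and 6 higher and 5 lower after upper-quartile scaling (54.5%).

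Libraries also differed in marker genes of organs. The sum of 5 root genes (RCc3, Lsi1, Lsi2, NRT2.1 and IRT1) was 199 FPKM in control and 26.0 in salt of IR29, and 65.0 in control and 106 in salt of Pok. The sum of 3 measured loci for the small subunit of Rubisco, which mark green tissue, was 2262, 245, 1854 and 821 FPKM in the same order. Both sums were lowest in IR29 salt, and in Pok the root sum was higher and the shoot sum lower with salt. RCc3, Lsi1, Lsi2 and each of the 3 Rubisco loci went the way of their sum. NRT2.1, however, was lower with salt in Pok, at 1.13 and 0.865 FPKM. IRT1 was level in IR29, at 0.430 and 0.433 FPKM, and lowest in Pok control, at 0.228 FPKM. The part of these markers in the results on any gibberellin-related gene was not tested. In whole seedlings fewer cells of a type and less RNA per cell cannot be told apart.

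The GA2 oxidases, the inactivating enzymes, were mostly higher with salt. Their median log2 ratio with salt was 1.38 in IR29 and 0.90 in Pok over the 7 with a mean of at least 1 FPKM. After centring these medians were 1.15 and 0.86, with 5 FPKM added in place of 1 they were 0.77 and 0.31, and over all 13 transcripts, without the minimum mean, 0.37 and 0.39. In Pok the GA20 and GA3 oxidases had a higher median than the GA2 oxidases in the last 2 settings, at 0.41 and 0.43. The ratio was above 0 for 5 of the 7 in IR29 and for 6 in Pok, where the seventh was listed at 0 in both libraries. Over all 18012 annotated transcripts under the same limit it was above 0 for 11530 in IR29 and 10170 in Pok, with medians of 0.22 and 0.08. The GA2 oxidases summed to 12.4 FPKM in control and 43.2 in salt of IR29, and to 10.4 and 28.5 in Pok. With salt these sums were 3.47 and 2.75 times as high. Without the leading transcript Os01g55240.1 these ratios were 3.09 and 3.58. The 4 GA2 oxidases considered in IR29 were all called higher, but none of them reached 5 FPKM in IR29 control, so they could enter only through the salt library and their number carries no weight of its own.

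Os01g55240.1 (GA2ox3, chromosome 1, 31794054 to 31796599 in MSU v6.1) held 2.97 FPKM in control and 13.9 in salt of IR29, and 6.48 in control and 14.6 in salt of Pok. Both salt libraries were above both controls, by 4.68-fold in IR29 and 2.26-fold in Pok (log2 ratios 1.91 and 1.06). In Pok this was 1.96-fold after upper-quartile scaling, just under the limit. The salt levels of the genotypes lay close to each other, while Pok control was 2.18-fold above IR29 control.

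Os01g11150.1 (GA2ox7, chromosome 1, 5967819 to 5971489) was measured at 0.887, 7.23, 0.497 and 2.03 FPKM in the same order of libraries, that is IR29 control, IR29 salt, Pok control and Pok salt, which is kept from here on. It was 8.15-fold higher with salt in IR29 (log2 ratio 2.12) and 4.08-fold higher in Pok (1.02), where it stayed under 5 FPKM and was not considered. Under salt it was 3.56-fold lower in Pok than in IR29. Os05g48700.1 (GA2ox8, chromosome 5, 27848088 to 27850281) had 1.38, 6.31, 0.624 and 4.33 FPKM, with log2 ratios of 1.62 in IR29 and 1.71 in Pok. Salt over control of this transcript was 4.58-fold in IR29 and 6.94-fold in Pok, although the Pok pair stayed under the minimum.

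The transcript of GA2ox1, Os05g06670.1 (chromosome 5, 3459411 to 3468732), separated the genotypes. It was 2.15 FPKM in IR29 control and 7.18 in IR29 salt, a 3.34-fold difference, and was listed at 0 in both Pok libraries. A value of 0 in such a table can be a failed estimate, so no fold is given against it. A splice variant of it was 1.40 and 1.41 FPKM in IR29 and was also listed at 0 in Pok, and none of the 2 other annotated transcripts of its assembled locus reached 2 FPKM in any library. Lower levels were found for Os05g43880.1 (GA2ox4), at 0.620, 2.55, 0.766 and 1.29 FPKM, and for Os02g41954.1 (GA2ox9), which was listed at 0 in both controls and held 1.66 FPKM in IR29 salt and 0.940 in Pok salt. Against this direction in IR29 were Os04g33360.1, with 2.38 FPKM in control and 1.89 in salt, and Os04g44150.1 (GA2ox6), with 1.01 and 0.670. In Pok both were above control with salt, at 1.20 and 1.89 FPKM and at 0.563 and 1.91 FPKM. The remaining GA2 oxidase transcripts, of the loci Os07g01340, Os05g11810 and Os01g22920 and a second one of Os02g41954, stayed at or below 1.40 FPKM.

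**Figure D2:**
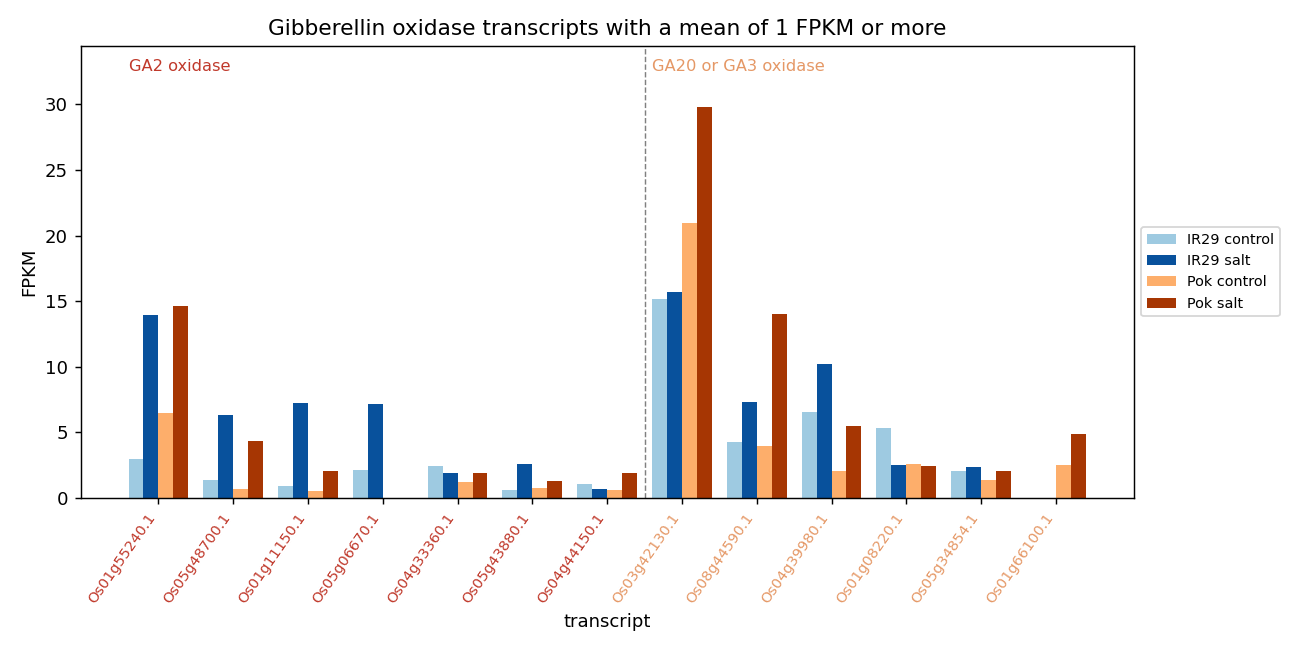
FPKM (vertical axis, from 0) of the 7 GA2 oxidase and 6 GA20 or GA3 oxidase transcripts with a mean of 1 FPKM or more, with 1 bar for each of the 4 libraries and no error bars because each condition had 1 library. Os01g55240.1 stands at 13.9 and 14.6 FPKM with salt, and bars are missing for Os05g06670.1 in Pok and for Os01g66100.1 in IR29, which were listed at 0.

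The GA20 and GA3 oxidases, the enzymes of synthesis, summed to 33.6, 39.3, 33.3 and 59.3 FPKM, which was 1.17 times as high with salt in IR29 and 1.78 times in Pok, or 1.29 and 2.39 times without the leading transcript. The log2 of the ratio of the whole sums was 0.23 in IR29 and 0.83 in Pok. The median of single log2 ratios over the 7424 well measured transcripts, a different measure, was 0.26 and 0.06. The sum over all annotated transcripts was 236639, 260409, 270112 and 285981 FPKM in the same order of libraries. The median log2 ratio of these oxidases with salt was 0.09 in IR29 and 0.63 in Pok over 6 transcripts. In IR29 none of the 4 considered was called higher and 1 was lower, beside 19.1% and 5.96% of all transcripts, and in Pok 2 of the 3 considered were higher and none was lower, beside 15.7% and 5.61%. The 2 called in Pok were under 5 FPKM in Pok control. They entered only through the salt library, and their number carries no weight of its own. Likewise the 1 lower in IR29 entered only through the control library.

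Os03g42130.1, annotated as a GA20 oxidase, led the group with 15.2, 15.7, 21.0 and 29.8 FPKM, 1.03 and 1.42 times as high with salt. Os08g44590.1, another GA20 oxidase by annotation, had 4.26, 7.31, 3.91 and 14.0 FPKM. It was 3.59-fold higher with salt in Pok (log2 ratio 1.61) and 1.71-fold in IR29 (0.66), so that Pok salt stood well above the other libraries. The controls of both genotypes were close to each other for this transcript. Os04g39980.1 held 6.51, 10.2, 2.07 and 5.45 FPKM, and was 2.63-fold higher with salt in Pok and 1.57-fold in IR29. Its Pok control was 3.14-fold below IR29 control, so that with salt the Pok level still lay below that of IR29. After upper-quartile scaling Pok salt of this transcript was 4.71 FPKM, under the minimum, and the call in Pok was lost.

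D18 (Os01g08220.1), the GA3 oxidase of vegetative growth in rice, was 5.33 FPKM in IR29 control and between 2.40 and 2.54 FPKM in the other libraries. IR29 control alone was high, so the transcript was called 2.15-fold lower with salt in IR29 (log2 ratio −0.86) and also lower in Pok control than in IR29 control (−0.84). The other GA3 oxidase, Os05g08540.1 (GA3ox1), was not above 0.0349 FPKM in any library. SD1 (Os01g66100.1, chromosome 1, 38372010 to 38384461), a GA20 oxidase known as the semidwarf gene of rice, was listed at 0 in both IR29 libraries and held 2.46 FPKM in Pok control and 4.88 in Pok salt. As above, a value of 0 can be a failed estimate. A splice variant of this gene was measured in IR29, at 0.846 FPKM in control and 2.87 in salt, and in Pok at 0.904 and 0.693, and a transcript antisense to it at 0.487, 0.499, 2.78 and 3.60 FPKM, so the gene was not without signal in IR29. No other annotated transcript shared its assembled locus, and with less than 5 FPKM in all libraries it was considered in no comparison. Os05g34854.1 (GA20ox4) varied between 1.32 and 2.37 FPKM, and Os07g07420.1 (GA20ox3) and Os04g55070.1 stayed at or below 0.690 FPKM.

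Among the receptors, GID1 itself (Os05g33730.1, chromosome 5, 19805895 to 19808759) had the highest mean level. It held 17.8, 25.8, 20.1 and 32.7 FPKM, with log2 ratios for salt of 0.51 in IR29 and 0.68 in Pok. Both salt libraries were above both controls, and none of these differences reached 2-fold. Of the 35 receptor transcripts 19 were considered in IR29, with 4 higher and 1 lower with salt (21.1% and 5.26%, beside 19.1% and 5.96% of all transcripts), and 20 in Pok, with 5 higher and 2 lower, beside 15.7% and 5.61%. The median log2 ratio over 27 of them was 0.22 in IR29, the same as over all transcripts, and 0.47 in Pok, with 0.05 and 0.42 after centring. Of the called receptors, Os03g57640.1 and Os03g15270.1 were under 5 FPKM in both controls and entered only through the salt libraries. The same held for Os01g06220.1 and Os07g06850.1 in Pok. Os09g28640.1 in both genotypes and Os09g28660.1 in Pok entered only through the controls. The numbers of called receptors therefore carry no weight of their own. Reads of near-identical copies in this multigene family could have been divided among them in the counting, which makes single values uncertain.

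The GID1L2-annotated Os03g57640.1 (chromosome 3, 32844295 to 32845652) had the largest log2 ratios of FPKM + 1 with salt of all 79 transcripts in both genotypes. It was 2.97 FPKM in control and 45.8 in salt of IR29, and 2.47 in control and 35.3 in salt of Pok. That is 15.4-fold higher with salt in IR29 and 14.3-fold in Pok (log2 ratios 3.56 and 3.39). The controls were low and alike in both genotypes, and with salt this transcript exceeded the level of GID1 in each of them.

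Os01g06220.1 (chromosome 1, 2956066 to 2957443) came next among the receptors, at 5.51, 18.2, 2.40 and 25.4 FPKM. Salt over control was 3.31-fold in IR29 (log2 ratio 1.56) and 10.6-fold in Pok (2.96). Here the genotypes lay apart at the start, Pok control being 2.30-fold below IR29 control, and the log2 ratio was larger by 1.39 in Pok, a difference that was not tested. Of its neighbours on chromosome 1 within 2895685 to 2957443, Os01g06210.1 was not above 0.0762 FPKM and Os01g06060.1 not above 1.25 FPKM.

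Os03g15270.1 (chromosome 3) was the third receptor called higher in both genotypes, with 3.95, 11.5, 3.78 and 12.2 FPKM and log2 ratios of 1.34 and 1.47. Its assembled locus spans 16698 bp with 3 other annotated transcripts, 1 of which reached 2 FPKM. A run of 5 receptor loci on chromosome 7 (3331887 to 3360560) held 2 of the remaining calls. Os07g06830.1 had 6.78, 15.1, 9.15 and 16.7 FPKM, 2.22-fold higher with salt in IR29, or 1.85-fold after centring, and 1.82-fold in Pok. Os07g06850.1 had 4.37, 7.35, 4.37 and 10.2 FPKM, 1.68-fold and 2.32-fold higher. Each was thus called in 1 genotype and lay short of the limit in the other in the same direction, so these calls do not show a difference between genotypes. Between them on the chromosome, Os07g06840.1 was slightly lower with salt in IR29, at 13.4 and 11.6 FPKM, and higher in Pok, at 16.9 and 20.9 FPKM.

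Os08g37060.1 (chromosome 8) went in opposite directions. It was 10.8 FPKM in IR29 control and 7.41 in IR29 salt (log2 ratio −0.49), against 7.44 in Pok control and 15.0 in Pok salt (0.92, 2.02-fold). Under salt it was called higher in Pok than in IR29. Both calls were lost under scaling, salt over control in Pok being 1.93-fold after centring and 1.75-fold after upper-quartile scaling and Pok over IR29 with salt 1.87-fold and 1.84-fold, and the difference between the responses was not tested. A transcript on the opposite strand of this locus was measured at 16.0, 11.1, 12.2 and 14.2 FPKM. The library preparation was not stated to keep strand, so reads of a gene and of its antisense partner cannot be told apart.

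A run of 7 neighbouring receptor loci on chromosome 9 (17413086 to 17471212) held members of different directions, and all 7 reached 5 FPKM in a library. Os09g28640.1 held 14.5, 4.19, 7.35 and 1.97 FPKM, 3.45-fold lower with salt in IR29 and 3.74-fold lower in Pok (log2 ratios −1.57 and −1.49). It was the only receptor called lower in both genotypes, and an antisense transcript at its locus was measured between 2.37 FPKM in IR29 salt and 6.48 in IR29 control. Os09g28660.1 had 4.78, 1.79, 6.37 and 3.13 FPKM. It was called 2.04-fold lower in Pok, and in IR29, where neither library reached 5 FPKM, the values were 2.67-fold apart in the same direction.

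Directly between them, Os09g28650.1 held 13.4, 17.9, 5.37 and 7.46 FPKM. Its log2 ratios for salt were 0.39 and 0.41, and it was 2.49-fold lower in Pok than in IR29 without salt and 2.40-fold lower with salt. On the other side, Os09g28630.1 was the highest of the run at 21.8, 12.7, 22.6 and 24.6 FPKM, with IR29 salt alone low. These 3 loci, Os09g28630, Os09g28640 and Os09g28650, were merged into 1 assembled locus of 8363 bp (17416259 to 17424621), which may affect how reads were divided among them. The values of the remaining loci of the run, Os09g28620, Os09g28740 and Os09g28750, all lay between 3.05 and 6.20 FPKM.

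**Figure D3:**
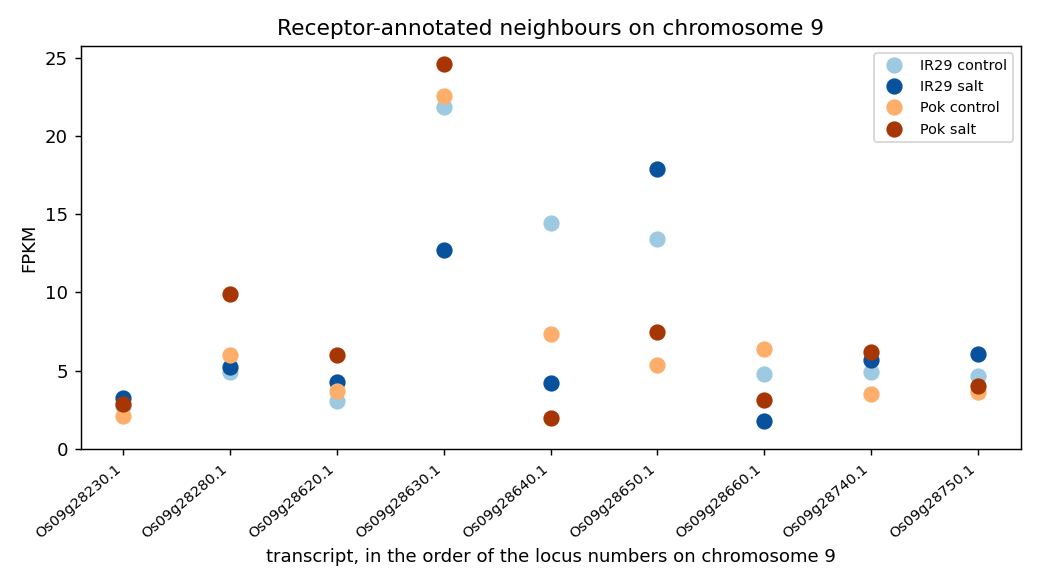
FPKM (vertical axis, from 0) of 9 receptor-annotated transcripts of chromosome 9 in the order of their locus numbers, with 1 point for each of the 4 libraries. Os09g28640.1 is lower with salt in both genotypes, Os09g28650.1 is lower in Pok than in IR29 in both conditions, and the loci at either end vary little.

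Of the other receptors, Os02g35940.1 (chromosome 2) set the genotypes apart. It held 4.55 FPKM in IR29 control and 6.76 in IR29 salt against 0.821 and 0.613 in Pok, which under salt was 11.0-fold lower in Pok (log2 ratio −2.27). A second run of 5 loci, on chromosome 7 (26779055 to 26802481), never reached 5 FPKM, its highest value being 4.70 FPKM for Os07g44890.1 in IR29 salt. In all, 12 receptors at 5 FPKM or more were called in no comparison. They include Os11g13670.1, with 9.24, 16.9, 14.9 and 24.8 FPKM, Os06g11130.1, with 14.2, 10.2, 14.0 and 15.6 FPKM, and Os03g14730.1, with 7.80, 4.49, 7.97 and 4.45 FPKM, which was 1.74-fold and 1.79-fold lower with salt.

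The gibberellin-regulated proteins held both directions, and mostly the same one in both genotypes. Their summed level was 79.4, 88.7, 113 and 136 FPKM, 1.12 and 1.20 times as high with salt. The log2 of these ratios was 0.16 in IR29 and 0.26 in Pok. The median of single log2 ratios over the 7424 well measured transcripts, a different measure, was 0.26 in IR29 and 0.06 in Pok. Without the leading transcript, GASR3, the sum was 58.1, 50.5, 83.8 and 82.7 FPKM, which was 0.870 times as high with salt in IR29 and 0.987 times in Pok. Over 7 transcripts the median log2 ratio with salt was −0.69 in IR29 and 0.13 in Pok.

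GASR3 (Os03g55290.1) had 21.3, 38.2, 29.5 and 53.0 FPKM, 1.79-fold and 1.80-fold higher with salt, and reached the highest value of all 79 transcripts in Pok salt. GASR2 (Os03g41060.1) had 11.2, 25.4, 18.3 and 42.5 FPKM and was called higher in both genotypes, by 2.28-fold in IR29 and 2.33-fold in Pok (log2 ratios 1.12 and 1.17). In IR29 this became 1.90-fold after centring and 1.77-fold after upper-quartile scaling, which ends the call. For both, the ratios of the genotypes were nearly equal and Pok was above IR29 in each condition.

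GASR10 (Os09g24840.2) had the opposite direction with 6.04, 2.07, 13.7 and 5.35 FPKM. It was 2.92-fold lower with salt in IR29 and 2.56-fold lower in Pok (log2 ratios −1.20 and −1.21), and it was higher in Pok than in IR29 by 2.27-fold without and 2.59-fold with salt. GASR7 (Os06g15620.1) was also lower with salt, at 22.9, 12.8, 28.4 and 16.2 FPKM, but by 1.79-fold and 1.75-fold only. GASR5 (Os05g31280.1), at 7.36, 2.51, 8.19 and 4.99 FPKM, was called 2.93-fold lower in IR29 and was 1.64-fold lower in Pok. Of these 5 peptides, 3 were thus lower and 2 higher with salt in both genotypes.

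GASR8 (Os06g51320.3) differed in this respect, with 8.96 and 5.16 FPKM in IR29 and 7.95 and 8.78 FPKM in Pok. Other transcripts of its locus appeared in Pok control alone, at 3.51 and 1.40 FPKM, and the sum over the locus was 8.96, 5.16, 12.9 and 8.78 FPKM. On that sum the direction in Pok was downwards too. GASR9 (Os07g40240.1) was low, at 1.66, 2.56, 2.40 and 4.58 FPKM, and was higher with salt in both genotypes. Os10g02625.1 was listed at 0.333 FPKM in Pok salt and at 0 elsewhere, and GASR1 (Os03g14550.1) was listed at 0 throughout. All 7 with a mean of at least 1 FPKM were higher in Pok salt than in IR29 salt, with a median log2 ratio of 0.67, or 0.56 after centring. Without salt 6 of the 7 were also higher in Pok, with a median of 0.35, or 0.13 after centring. Of all 18012 annotated transcripts under this limit, 10240 were higher in Pok salt than in IR29 salt, with a median of 0.08.

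**Figure D4:**
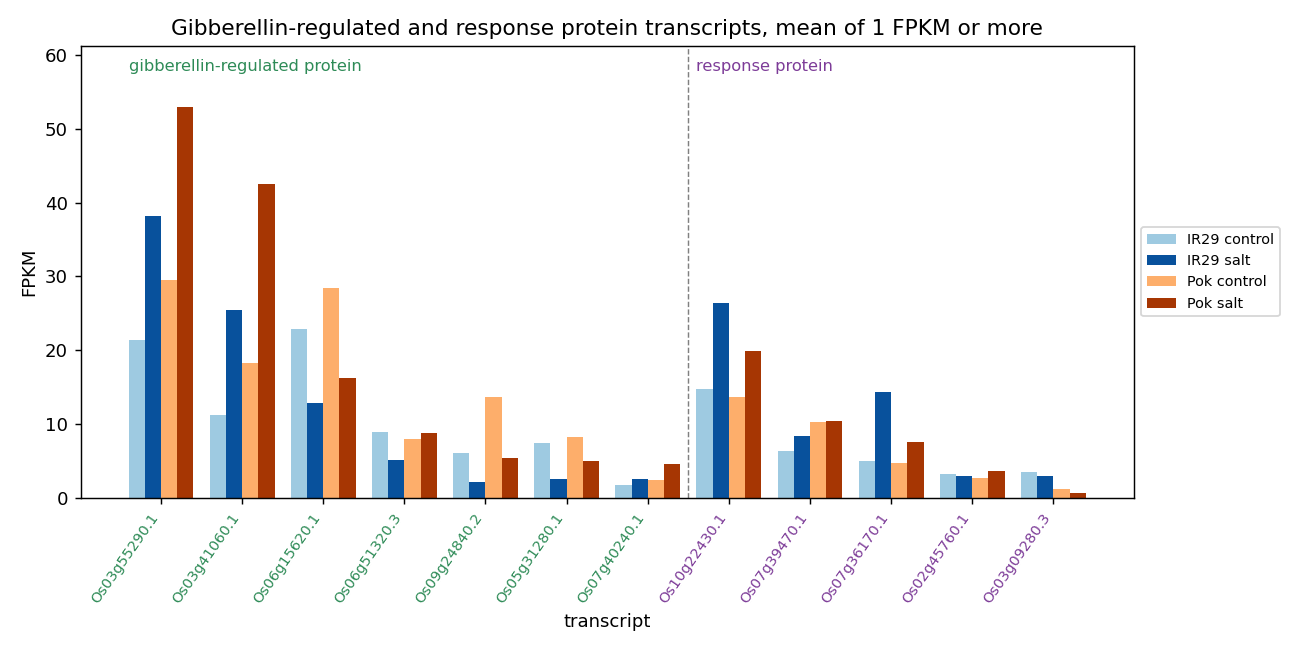
FPKM (vertical axis, from 0) of the 7 gibberellin-regulated and 5 response protein transcripts with a mean of 1 FPKM or more, with 1 bar for each of the 4 libraries and no error bars because each condition had 1 library. Os03g55290.1 and Os03g41060.1 are higher with salt in both genotypes, and Os06g15620.1, Os09g24840.2 and Os05g31280.1 are lower in both.

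The response proteins were led by Os10g22430.1, a gibberellin response modulator by annotation, with 14.7, 26.4, 13.6 and 19.9 FPKM. Os07g39470.1, of the same annotation, had 6.27, 8.33, 10.2 and 10.4 FPKM. Neither was called in a comparison. Os07g36170.1, a chitin-inducible gibberellin-responsive protein, was the only one called, with 4.99, 14.3, 4.75 and 7.56 FPKM, 2.86-fold higher with salt in IR29 (log2 ratio 1.35) and 1.59-fold higher in Pok. Os02g45760.1 and Os03g09280.3 stayed between 0.676 and 3.64 FPKM, and the others at or below 0.673 FPKM.

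The other steps of the pathway, whose annotation does not hold the word gibberellin, were 7 loci with 8 transcripts. None was called with salt in IR29, where 3 were considered, and 1 of 5 considered was higher in Pok. Of all transcripts 19.1% and 15.7% were called higher. The 1 called in Pok was under 5 FPKM in Pok control and entered only through the salt library, so its number carries no weight of its own. SLR1 (Os03g49990.1), the DELLA repressor, was 19.6 FPKM in IR29 control and 19.5 in IR29 salt, and 29.3 in Pok control and 30.7 in Pok salt. It was thus level with salt in both genotypes and higher in Pok, by less than 2-fold. SPY (Os08g44510.1), a negative regulator of gibberellin signalling that is annotated as a putative N-acetylglucosaminyltransferase, had 8.46, 13.3, 12.1 and 12.7 FPKM. The DELLA-like SLRL1 (Os01g45860.1) was between 3.83 and 6.23 FPKM.

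Of the early enzymes of synthesis, CPS1 (Os02g17780.1), which forms the precursor of ent-kaurene, was between 0.786 and 1.84 FPKM, and KS1 (Os04g52230.1), ent-kaurene synthase, between 1.35 and 2.61 FPKM. KAO (Os06g02019.1), the later P450 of the series, had 4.28, 3.68, 4.84 and 3.40 FPKM. For KO2 (Os06g37364), ent-kaurene oxidase, the call with salt lay in 1 of 2 transcripts. Os06g37364.3 had 0.813, 3.62, 0.495 and 5.26 FPKM, with a log2 ratio for salt of 2.07 in Pok, while Os06g37364.2 had 4.01, 7.53, 8.03 and 4.57 FPKM. Summed over the locus the levels were 4.82, 11.1, 8.53 and 9.83 FPKM, so that the sum was 2.31-fold higher with salt in IR29, which would pass the limits, and 1.15-fold higher in Pok.

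The salt comparisons of IR29 and Pok share no library and can be set side by side. Of the 30 transcripts considered in both, 5 were higher in both genotypes, namely the receptors Os03g57640.1, Os01g06220.1 and Os03g15270.1, the GA2 oxidase Os01g55240.1 and GASR2. The receptor Os09g28640.1 and GASR10 were lower in both, and 0 were called in opposite directions. These are 16.7%, 6.67% and 0% of the 30, beside 8.98%, 1.36% and 0.971% of the 10092 annotated transcripts considered in both. Os03g57640.1 and Os03g15270.1 were under 5 FPKM in both controls, so they were considered only through the salt libraries. The same held for Os01g06220.1 in Pok and Os01g55240.1 in IR29. Os09g28640.1 in both genotypes and GASR10 in IR29 entered only through the controls. The members' shares therefore carry no weight of their own. Among all members, 5 were called higher in IR29 and not in Pok, of which 3 were GA2 oxidases that stayed under 5 FPKM in Pok and could not be called there. In Pok and not in IR29 4 were called higher, which were 2 receptors and 2 GA20 oxidases. In all, 14 members were called higher in either genotype. Of all annotated transcripts 3032 were higher in either, 1217 of them in IR29 and not in Pok and 909 in Pok and not in IR29. Called lower were 526 in IR29 and not in Pok, and 511 in Pok and not in IR29. D18 and GASR5 were called lower in IR29 only and the receptor Os09g28660.1 in Pok only, but D18 was not considered in Pok and Os09g28660.1 not in IR29. Of the 5 higher in both, GASR2 lost its call in IR29 under either scaling and Os01g55240.1 its call in Pok after upper-quartile scaling. Whether the responses of the genotypes differ was not tested, and some transcripts called in one genotype lay near the limit in the other, such as Os07g06830.1. Over the 52 transcripts with a mean of at least 1 FPKM the log2 ratios of the genotypes correlated with Pearson's r of 0.790 and Spearman's rho of 0.682, beside 0.424 and 0.445 over the 18012 annotated transcripts, as a description across genes, which are not independent replicates.

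**Figure D5:**
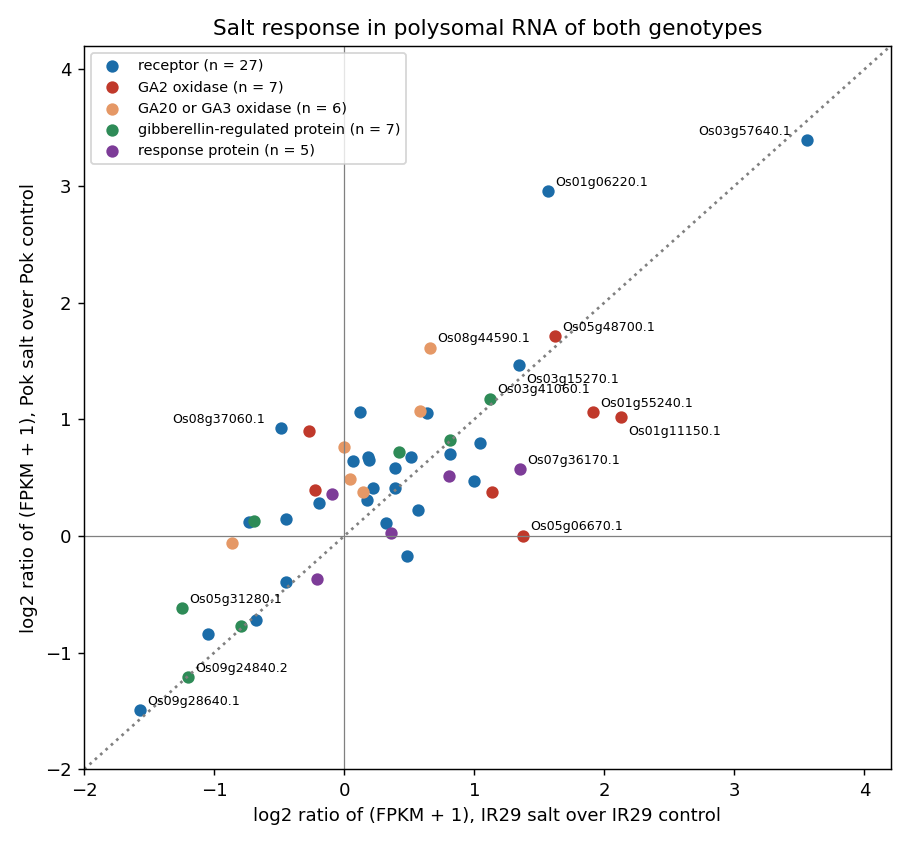
Log2 ratio of FPKM + 1 for salt over control in IR29 (horizontal axis) and in Pok (vertical axis) for the 52 gibberellin-related transcripts with a mean of 1 FPKM or more, 1 point each, with a dotted line of equal ratios. Os03g57640.1 lies far out at 3.56 and 3.39, and of the named points Os08g37060.1 alone lies below 0 in IR29 and above 0 in Pok.

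Between the genotypes, more of the calls among these transcripts were lower in Pok than higher. Without salt, 2 of 26 considered were higher in Pok, against 11.0% of all transcripts, and 4 were lower, against 6.62%. With salt, 2 of 34 were higher in Pok, against 9.87% of all, and 4 were lower, against 6.76%. With values of 0 left out, 3 were lower with salt, since Os05g06670.1 was listed at 0 in Pok. Yet the log2 ratio was above 0 for 16 of the 26 and for 24 of the 34. Over the 52 transcripts with a mean of at least 1 FPKM its median was −0.05 without salt and 0.18 with salt. Over the 18012 annotated transcripts it was 0.22 and 0.08. The comparisons of genotypes share their libraries with the salt comparisons, so they are no separate support for them. The transcripts higher in Pok control were Os01g55240.1 and GASR10, and those lower were the receptors Os01g06220.1 and Os09g28650.1, the GA20 oxidase Os04g39980.1 and D18. With salt Os08g37060.1 and GASR10 were higher in Pok, and the receptors Os09g28650.1 and Os02g35940.1 and the GA2 oxidases Os01g11150.1 and Os05g06670.1 were lower. GASR10 and Os09g28650.1 were thus called in the same direction in both conditions. Of the transcripts called lower in Pok, all but Os09g28650.1 were under 5 FPKM in Pok in their comparison. They were considered only through IR29 and could only be called lower. Likewise Os01g55240.1 without salt and GASR10 with salt were under 5 FPKM in IR29 and entered only through Pok. The numbers of these calls therefore carry no weight of their own. Of the called members, 33.3% were higher in Pok in both comparisons on the deposited scale. After centring these became 0 higher and 5 lower without salt and 0 higher and 6 lower with salt, and after upper-quartile scaling 0 and 7 and 0 and 6, so no call of a higher level in Pok was kept under either scaling. For GASR10 with salt the ratio stayed at 2.38-fold after centring and 2.35-fold after upper-quartile scaling, and the call was lost because Pok salt, at 4.92 and 4.62 FPKM, came under the minimum. The other lost calls fell below 2-fold.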

How the data were processed

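The authors deposited FPKM values per assembled transcript of the polysomal libraries. Per the methods, TopHat aligned the reads to release MSU v6.1 of the rice genome, and transcripts were assembled with Cufflinks, merged and classed against the annotation, and compared with Cuffdiff; versions and read counts per transcript are not given in the sources used here. Positions are of assembled loci. No sequence and no total RNA library was used here.

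Annotated transcripts were compared pairwise in 4 comparisons with Python 3.11.15 and pandas 2.3.3. The limits of 5 FPKM and 2-fold are the study's size limits without its FDR. Log2 ratios are of FPKM + 1, which understates low genes. The members and lists were chosen with earlier results of these data known. Named genes are all members called in any comparison, the 3 highest of each group and pathway loci. For GID2 and GA2ox2 the annotation text of the locus on the list named other proteins. The listed loci of GA20ox1, EUI1 and GAMYB held no annotated transcript and were not compared. An assembled transcript of another class, overlapping an exon of GA20ox1 (Os03g63970), had 4.51, 2.69, 3.68 and 4.38 FPKM in the same order of libraries. Alternatives were other minima, folds and pseudocounts, centring, upper-quartile scaling, sums per locus and leaving out values of 0.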

Additional observations from a re-analysis of the deposited data

Results flagged for a closer look

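The receptor-annotated Os08g37060.1 was singled out because its salt over control log2 ratio was −0.49 in IR29 and 0.92 in Pok, opposite directions in the 1 pair of libraries of each genotype. The rule also asked for a call with salt in a genotype. The difference between the genotypes was not tested, and the 2-fold call in Pok was lost after centring (log2 ratio 0.87) and upper-quartile scaling (0.73). Members without a call with salt also had opposite directions. Among them were Os09g28630.1 (−0.73 in IR29 and 0.12 in Pok), GASR8 Os06g51320.3 (−0.69 and 0.13) and Os04g44150.1 (−0.27 and 0.90).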

How the results depend on the processing

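Each genotype had 1 control and 1 salt library, and a fit with the genotypes as pairs was not run. Counts of members were within 1.5 times the reported one in 34 of 64 cases and moved further in 30. At 4-fold, the higher and lower counts were 4 and 0 for salt in IR29, 2 and 0 for salt in Pok, 0 and 0 for Pok over IR29 without salt, and 0 and 2 with salt. With a minimum of 10 FPKM the lower counts were 1 in all 4 comparisons, and the higher counts were 1 in both comparisons of genotypes. With a minimum of 1 FPKM, 5 were lower with salt in Pok, 6 were higher and 12 lower in Pok control, and 4 were higher and 7 lower in Pok salt. On FPKM + 1, 1 was higher and 2 were lower in Pok control and 1 was higher in Pok salt. Centring gave 8 lower in IR29 with salt, and 0 higher in Pok without and with salt. Upper-quartile scaling gave 9 lower with salt in IR29 and 5 in Pok, and, for Pok over IR29, 0 higher in both conditions and 7 lower without salt.

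Of 140 median log2 ratios 135 kept within 1.5-fold. The median of GA2 oxidases with salt in IR29 became 0.77 with 5 FPKM added and 0.37 without a minimum mean, and for Pok control over IR29 control 0.91 at a mean of 5 FPKM or more, where 1 transcript was left. The median of gibberellin-regulated proteins became 0 in IR29 without a minimum mean and −0.50 in Pok on sums per locus. No single member reversed in 76 cases, and 16 lost their call under a scaling, 13 by a ratio under 2-fold and 3 by the minimum of 5 FPKM. Without counts per transcript, the counting error of values near 5 FPKM cannot be given.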

Other observations

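The word gibberellin also stood in the annotation of 38 assembled transcripts of other classes, which were not part of the comparisons, and 14 of them reached 5 FPKM in a library. Most were splice variants (13, of which 4 reached it) and transcripts antisense to an exon (11, of which 6 did). An antisense transcript at the receptor-annotated locus Os07g44890 held 13.4, 16.3, 5.83 and 5.07 FPKM in IR29 control, IR29 salt, Pok control and Pok salt, above the annotated sense transcript in every library. At Os07g44850 the antisense transcript was 0.800, 7.24, 1.54 and 5.43 FPKM in the same order, higher with salt in both genotypes, while the annotated transcript was not above 0.315 FPKM. A possible run-on fragment beside Os03g57640.1 was 0.297, 6.89, 0 and 0.669 FPKM, with IR29 salt alone high. A splice variant of the GA20 oxidase Os08g44590 held 0.368, 2.40, 1.57 and 6.84 FPKM, and Pok salt was the highest library here as for the annotated transcript. The library preparation was not stated to keep strand, so these antisense values cannot be told apart from reads of the sense genes.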
